A study of Homo sapiens with 16 samples.

Results

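The NR4A, EGR and KLF early response factors examined here are 10 transcription factor genes, NR4A1, NR4A2, NR4A3, EGR1, EGR2, EGR3, KLF2, KLF4, KLF6 and KLF10. They were taken by name from the 20114 genes of the count table, and all 10 had enough counts to be tested. The names were chosen by their doxycycline values in Hs578 hairpin lines, where an earlier look at these data had put early response genes lower, so those values are given as a description with no p-value. RNA was sequenced from Hs578 breast cancer cells and from TT642 cells, in which PRRX1, a homeobox transcription factor of mesenchymal cells, can be lowered by a short hairpin RNA that doxycycline switches on. The series design counts both lines as triple-negative breast cancer, a class that lacks hormone receptors and HER2, but the source label of TT642 reads rhabdoid tumour. Of the 16 libraries, 8 came from each line. In each line, libraries labelled shPRRX1 and numbered 1 to 3 were taken as 3 derived lines with 1 hairpin each (hairpins 1 to 3). These lines were sequenced with 3 µg/ml doxycycline and without it, and so were parental cells that carry no hairpin. The groups are thus Hs578 hairpin lines with doxycycline (n = 3) and without it (n = 3), Hs578 parental cells with and without it (1 library each), and the same 4 groups of TT642. The parental cells set the effect of doxycycline itself beside that of the induced hairpin. How long doxycycline was given is not stated in the labels. The labels do not say that replicates were separate cultures. A p-value here therefore covers the spread among these libraries alone, part of which may be technical.

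Total counts ran from 13461527 to 24672906 per library, and no pair of replicates differed by as little as sampling noise. PRRX1 stood at 37.1 to 72.8 CPM (counts scaled to the effective library size) in induced Hs578 hairpin lines, against 227 to 291 CPM in the same lines without doxycycline. In TT642 hairpin lines PRRX1 stood at 184 to 513 CPM with doxycycline and 1213 to 1409 CPM without it. VIM, a mesenchymal filament protein, was high in both lines (4081 to 5874 CPM in Hs578 and 9916 to 11007 CPM in TT642), and the epithelial adhesion genes EPCAM and CDH1 were at most 0.37 CPM in any library. Of the other 3 epithelial markers, the keratins KRT18 and KRT8 stood at 185 to 401 CPM and 27.7 to 56.4 CPM in Hs578 and at most 1.54 CPM each in TT642, and CLDN4 was at most 1.82 CPM in either line. The matrix protein FN1 stood at 10219 to 17802 CPM in Hs578 and at 0.19 to 3.96 CPM in TT642. SMARCB1, the gene lost in most rhabdoid tumours, was present in both lines, at 87.7 to 125 CPM in Hs578 and 28.8 to 41.6 CPM in TT642. Of the receptor genes, ESR1 was at most 0.61 CPM and PGR at most 3.501 CPM in any library, while ERBB2, which encodes HER2, stood at 69.9 to 78.8 CPM in Hs578 and 109.7 to 173 CPM in TT642.

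Early response factors are switched on within minutes of a growth factor, stress or adhesion signal, from promoters that hold their activators in advance, and the proteins then change the expression of later genes. The EGR factors are zinc finger proteins whose promoters answer to ERK signalling through serum response factor (SRF) and its ELK partners at CArG boxes. The NR4A factors are orphan nuclear receptors that act without a known physiological ligand and are induced through cyclic AMP, calcium and ERK signals. Of the KLF zinc finger factors, KLF2 is driven by ERK5 and MEF2 factors, KLF4 is known for its part in epithelial and smooth muscle cell states, KLF6 was described as a tumour suppressor, and KLF10 is an early gene of TGF-beta.

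Promoter sequences are shown for the 4 genes whose doxycycline pairs the results turn on and which have an entry in the RefSeq promoter table (GRCh38.p14). The table held windows for 7 of the 10 genes, and NR4A2, EGR3 and KLF10 had none. Each sequence is the 250 bases before the annotated start, 5′ to 3′ on the strand of the gene. Capitals mark CArG boxes, the sites of SRF, and TGACG in either orientation, the core to which CREB binds.
EGR1: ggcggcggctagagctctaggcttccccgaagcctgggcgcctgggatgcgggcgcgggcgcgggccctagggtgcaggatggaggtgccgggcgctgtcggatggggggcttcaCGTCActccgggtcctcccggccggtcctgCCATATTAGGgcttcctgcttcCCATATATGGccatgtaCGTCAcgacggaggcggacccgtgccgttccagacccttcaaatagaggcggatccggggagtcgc
EGR2: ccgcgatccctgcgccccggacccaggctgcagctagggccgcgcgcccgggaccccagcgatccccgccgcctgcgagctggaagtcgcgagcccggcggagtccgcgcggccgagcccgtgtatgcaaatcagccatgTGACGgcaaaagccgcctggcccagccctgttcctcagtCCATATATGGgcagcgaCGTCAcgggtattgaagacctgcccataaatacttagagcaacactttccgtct
NR4A3: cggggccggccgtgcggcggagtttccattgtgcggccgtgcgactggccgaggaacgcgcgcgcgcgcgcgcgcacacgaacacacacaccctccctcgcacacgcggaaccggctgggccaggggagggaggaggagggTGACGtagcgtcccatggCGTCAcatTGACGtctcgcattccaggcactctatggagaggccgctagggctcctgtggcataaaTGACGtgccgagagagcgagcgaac
KLF4: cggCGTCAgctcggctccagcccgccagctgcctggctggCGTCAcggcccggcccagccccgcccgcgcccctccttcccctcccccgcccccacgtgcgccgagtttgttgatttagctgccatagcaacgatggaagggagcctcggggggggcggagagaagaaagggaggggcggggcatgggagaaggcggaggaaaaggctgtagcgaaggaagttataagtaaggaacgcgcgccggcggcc
These stretches lie at chr5:138465229-138465478 on the plus strand (EGR1), chr10:62816367-62816616 on the minus strand (EGR2), chr9:99821635-99821884 on the plus strand (NR4A3) and chr9:107489770-107490019 on the minus strand (KLF4). The EGR2 window is 1 of 3 annotated starts, shown because it holds a CArG box.

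EGR1 held 2 CArG boxes, beginning 105 and 83 bases before its start, and EGR2 held 1, at 71 bases. Of 35116 such windows of all genes, 1.16% held a CArG box. TGACG on either strand stood 4 times before NR4A3 and 2 times each before EGR1, EGR2 and KLF4, and 21.2% of all windows held it. The whole palindrome TGACGTCA, found in 1.65% of windows, was in none of those of the 7 genes. The EGR core GCGNGGGCG stood before EGR1, KLF2, KLF4 and KLF6, and 8.41% of windows held it. A MEF2 box, present in 0.515% of windows, stood before KLF2. TAATTA, a homeobox core found in 4.35% of windows, did not occur in these letters. These matches describe letters in a window and show no binding.

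Without doxycycline the 10 factors differed widely in level within a line. Per transcript length, the median over the 4 uninduced Hs578 libraries was 143 FPKM (fragments scaled by transcript length and library depth) for EGR1, 61.0 for KLF6, 24.8 for KLF10, 5.25 for KLF2 and 4.75 for NR4A1. KLF4, between KLF10 and KLF2, ranged from 14.3 to 18.8 FPKM. The last 4 places in Hs578 went to NR4A3 with 1.40 FPKM, EGR3 with 1.36, NR4A2 with 0.918 and EGR2 with 0.583. Neighbours in this order overlapped in their ranges for EGR1 and KLF6, for KLF2 and NR4A1, and along the last 4 places. In TT642 the order began with KLF6 at 102 FPKM, NR4A2 at 84.3, EGR1 at 65.1, KLF10 at 32.7, KLF2 at 21.3 and NR4A1 at 12.4. Lower in TT642 stood KLF4 with 7.85 FPKM, EGR2 with 7.71, EGR3 with 0.723 and NR4A3 with 0.628. Ranges overlapped there for NR4A2 and EGR1, for NR4A1 and KLF4, for KLF4 and EGR2, and for EGR3 and NR4A3.

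**Figure D1:**
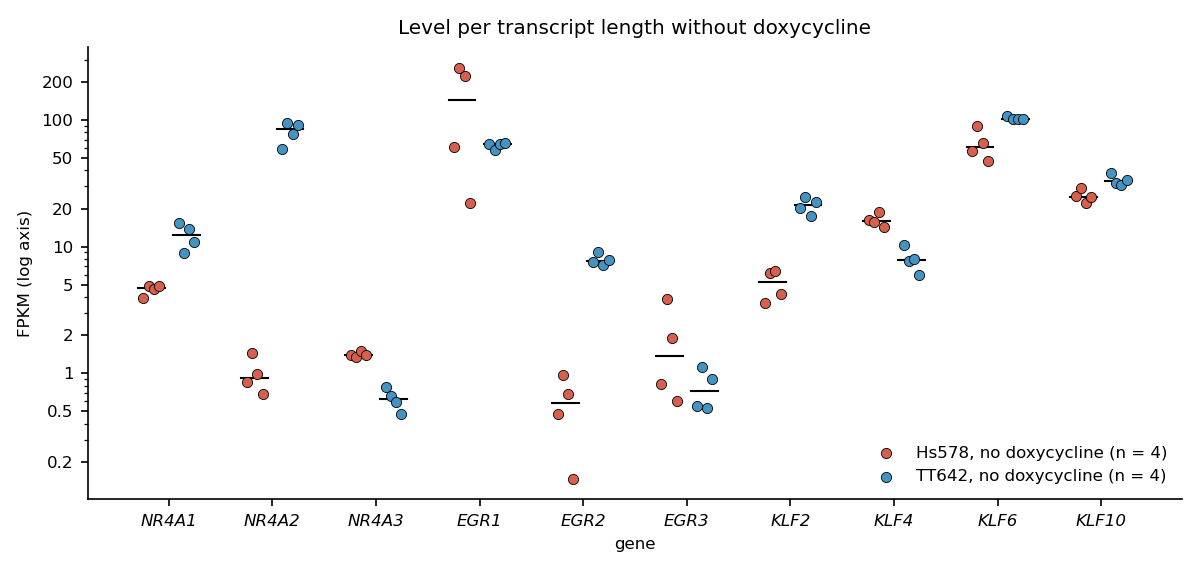
Level of each factor without doxycycline in FPKM on a log axis, with 1 point per library (3 hairpin lines and parental cells) and a bar at the median of the 4 libraries of each line. NR4A2 and EGR2 sit far lower in Hs578 than in TT642, and the 4 EGR1 points of Hs578 spread from 22.1 to 259 FPKM.

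Between the lines, 9 of the 10 factors differed without doxycycline by edgeR's quasi-likelihood test at an adjusted p under 0.05, where 83.5% of all 14035 genes tested did. Of these 9, 3 were higher and 6 lower in Hs578, beside 42.4% and 41.1% of all genes. A share this near the background says little about these genes, so the sizes are of more interest. NR4A2, the NURR1 receptor of dopamine neurons, stood at 2.52 CPM in parental Hs578 cells and 2.88 to 6.16 CPM in the uninduced Hs578 hairpin lines, against 204 CPM in parental TT642 cells and 257 to 284 CPM in the TT642 hairpin lines. It was 65.7-fold lower in Hs578 (log2 difference -6.04, SE 0.22, adjusted p = 5.99e-11). EGR2, a factor of hindbrain and Schwann cells, stood at 0.518 to 3.49 CPM in uninduced Hs578 libraries and 23.2 to 29.6 CPM in those of TT642, a 12.7-fold lower level in Hs578 (-3.67, SE 0.32, adjusted p = 3.79e-07). KLF2 (-1.67, SE 0.15), NR4A1 (-1.47, SE 0.14), KLF6 (-0.55, SE 0.16) and KLF10 (-0.27, SE 0.09) were also lower in Hs578. NR4A1, NR4A2, EGR2 and KLF2 were lower in all 8 Hs578 libraries than in any of the 8 TT642 libraries, which held for 30.7% of the genes tested, and none was higher in all 8, as 32.9% were.

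Higher in Hs578 than in TT642 were EGR3 (log2 difference 1.59, SE 0.51), NR4A3 (1.33, SE 0.22) and KLF4 (1.19, SE 0.16). The difference of EGR3 had an adjusted p of 0.0141 but was not called by limma or without hairpin 1 or hairpin 2 of both lines (adjusted p up to 0.111, over a range of 3.6e-05 to 0.111). EGR1 leaned the same way without a call (1.20, SE 0.60, adjusted p = 0.0887), and became one without the uninduced Hs578 hairpin 3 library (7.71e-06) and with DESeq2 (0.0471), where the alternatives ran from 7.71e-06 to 0.444. KLF6 was not called without hairpin 2 (0.0737, range 0.000113 to 0.0737), nor KLF10 without hairpin 2 (0.0619) or 3 (0.0937) or without the uninduced Hs578 hairpin 2 library (0.0565), over a range of 0.00127 to 0.0937.

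The EGR factors were the most uneven of the 10 among uninduced Hs578 libraries. EGR1, a growth-induced factor, held 1009, 862 and 82.8 CPM in hairpin lines 1, 2 and 3 without doxycycline, and 230 CPM in parental cells. The highest of these was 12.2-fold above the lowest, against 1.14-fold over the 4 uninduced TT642 libraries, which held 199 to 227 CPM. EGR3, which acts in muscle spindles and lymphocytes, spread 7.51-fold over the uninduced Hs578 libraries, and EGR2 6.73-fold at 9 to 60 reads. NR4A1 and NR4A3 spread by only 1.15-fold and 1.11-fold over the same 4 libraries.

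With doxycycline, EGR1 moved in opposite ways among the Hs578 hairpins. Hairpin lines 1, 2 and 3 held 291, 314 and 250 CPM with doxycycline, against the 1009, 862 and 82.8 CPM without it. The induced lines thus lay close together, and the 2 directions came from the uninduced libraries, with hairpins 1 and 2 lower (log2 ratios -1.79 and -1.46) and hairpin 3 higher (1.59). Parental Hs578 cells, which have no hairpin, held 55.4 CPM of EGR1 with doxycycline and 230 CPM without it (-2.05), a larger ratio than that of any hairpin pair that was lower. Over the 3 hairpin pairs the fitted log2 change was -1.19 (SE 0.69), with the groups overlapping. EGR2 followed the same split in Hs578, with 1.63, 2.14 and 2.78 CPM with doxycycline against 3.49, 2.50 and 0.518 CPM without it, at 9 to 60 reads per library. EGR3 held 5.03, 4.37 and 2.48 CPM with doxycycline and 19.5, 10.3 and 2.59 CPM without it, so that hairpins 1 and 2 were lower and hairpin 3 lay close to its uninduced level.

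In TT642, all 3 hairpin pairs had higher EGR levels with doxycycline, as Hs578 hairpin 3 had for EGR1 and EGR2. EGR1 held 374, 730 and 452 CPM in TT642 hairpin lines 1, 2 and 3 with doxycycline, against 199, 223 and 222 CPM without it. EGR3 held 4.82, 5.72 and 7.39 CPM with doxycycline and 3.23, 2.09 and 3.67 CPM without it. EGR2 held 32.5, 37.1 and 34.1 CPM with doxycycline and 29.6, 23.2 and 24.9 CPM without it. All 3 EGR genes were higher in every induced TT642 hairpin line than in any uninduced one, which held for 8.54% of the genes tested, and all 3 were higher in each hairpin pair, as for 18.9%. The fitted log2 changes were 1.27 for EGR1 (SE 0.69), 1.01 for EGR3 (SE 0.59) and 0.42 for EGR2 (SE 0.28), and none passed edgeR's quasi-likelihood test after adjustment over all genes (adjusted p = 0.725, 0.746 and 0.801). Parental TT642 cells held 244 CPM of EGR1 with doxycycline and 227 CPM without it (log2 ratio 0.11), and 3.91 CPM of EGR3 with it and 2.51 CPM without it (0.62). EGR1 and EGR3 were thus higher in all 4 TT642 pairs, as were 12% of the genes tested. The difference between the lines in these responses was not tested.

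**Figure D2:**
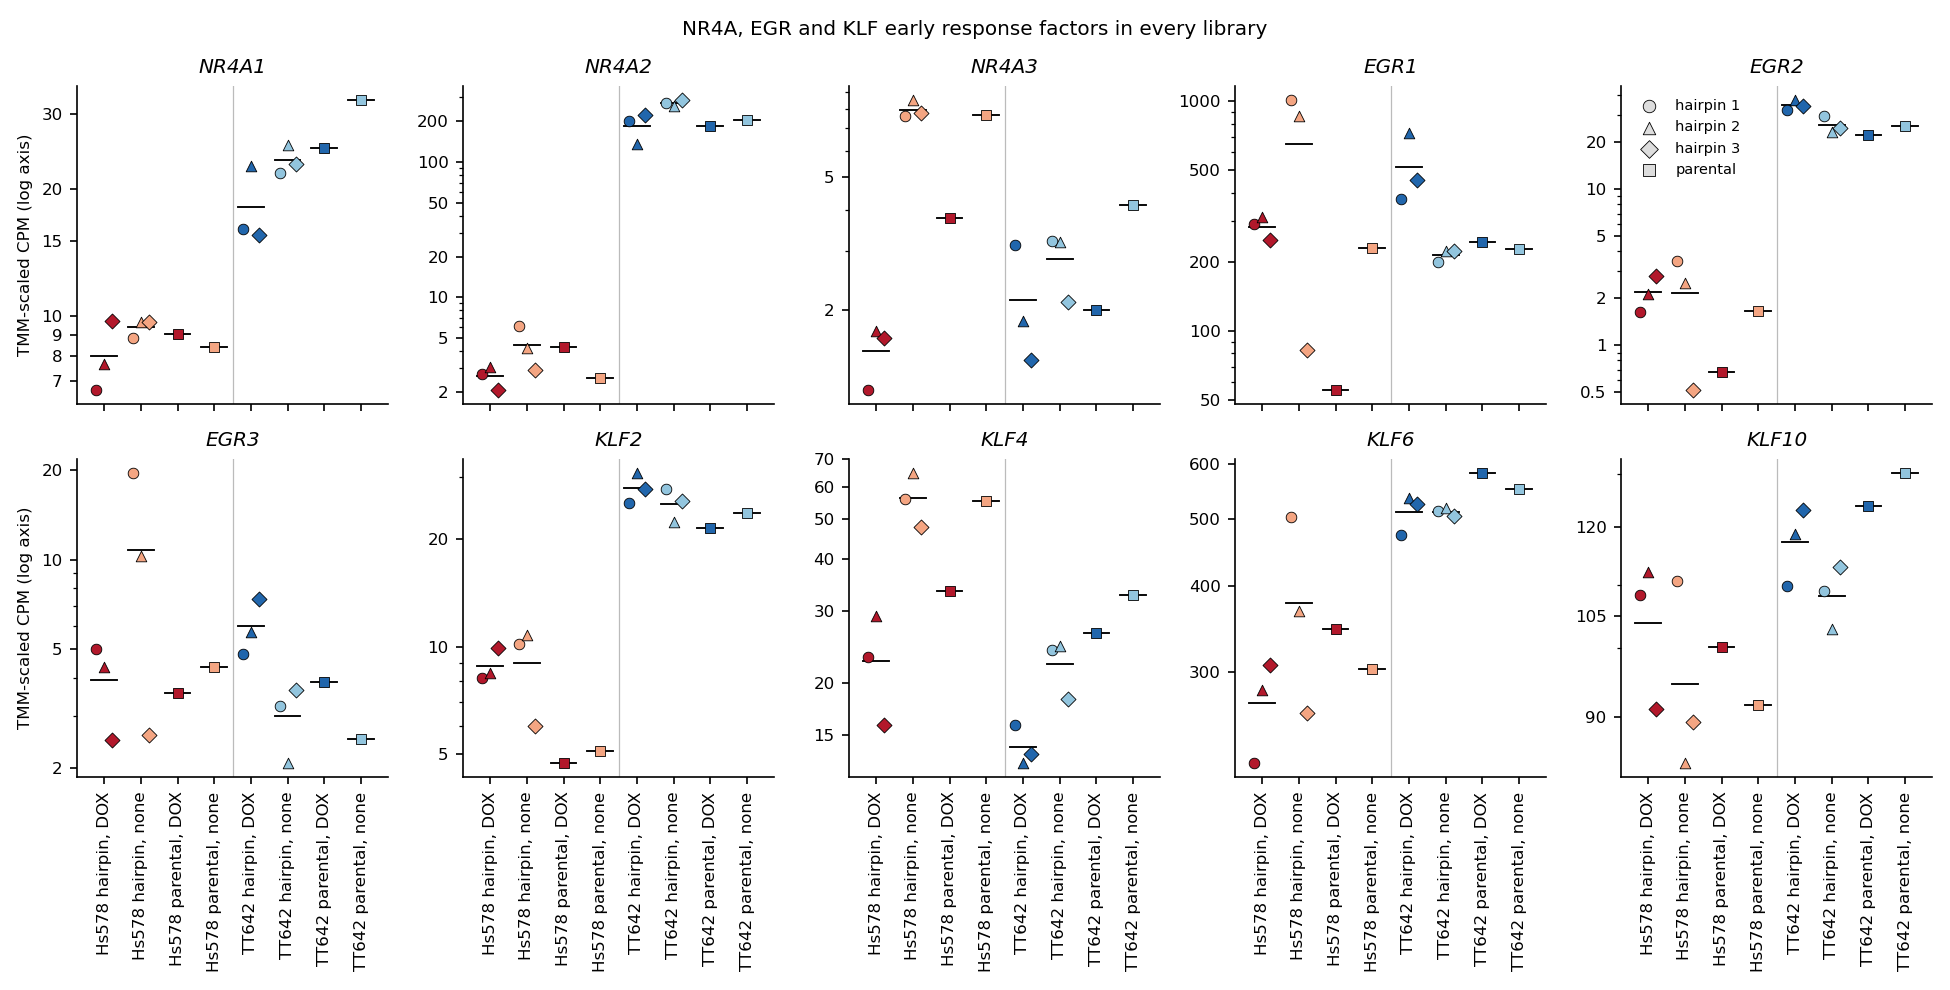
TMM-scaled CPM of each factor on a log axis in all 16 libraries, with a symbol per hairpin or parental cells and a bar at the group mean. The induced Hs578 hairpin lines lie close together for EGR1 (250 to 314 CPM) while the uninduced ones range from 82.8 to 1009 CPM, and NR4A3 and KLF4 are separated by doxycycline in the Hs578 hairpin lines.

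In the TT642 hairpin lines as a whole, 0 of the 10 factors were called by edgeR, where 0.0285% of the genes tested were. PRRX1, the target of the hairpins, was not called there either (log2 change -2.028, SE 0.355, adjusted p = 0.166). A missing call in this comparison therefore does not show that a gene was unchanged. At an unadjusted p under 0.05 there were 3, all lower (NR4A1, NR4A2 and KLF4), beside 7.82% of the genes tested, and DESeq2 and limma called 0. With a term per derived line (the replicate block), KLF4 was called and the count was 1. Over all 14035 genes tested, the block called 24 as higher and 22 as lower, against 2 and 2 without it. This block fit compares each induced line with its own uninduced library.

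Among the NR4A receptors, NR4A3 had the largest fitted doxycycline difference of the 10 factors over the Hs578 hairpin lines, though not in every pair. NR4A3, known as NOR1, held 1.16, 1.73 and 1.66 CPM in hairpin lines 1, 2 and 3 with doxycycline, from 17 to 28 reads, against 7.61, 8.47 and 7.77 CPM without it, from 131 to 139 reads. The groups did not overlap, as for 21.9% of the genes tested in this direction, and the fitted log2 difference was -2.39 (SE 0.28), a 5.24-fold lower level. Parental Hs578 cells held 3.78 CPM with doxycycline and 7.69 CPM without it (49.2% of it), so the doxycycline level without a hairpin lay between the induced and the uninduced hairpin lines. In TT642, NR4A3 was low throughout, with 3.14, 1.86 and 1.42 CPM in the hairpin lines with doxycycline and 3.23, 3.21 and 2.11 CPM without it (-0.45, SE 0.28, adjusted p = 0.752). Parental TT642 cells held 2.004 CPM with doxycycline and 4.14 CPM without it (-1.01).

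NR4A2 held 200, 135 and 221 CPM in TT642 hairpin lines with doxycycline and 273, 257 and 284 CPM without it. The groups did not overlap, as for 6.31% of the genes tested in this direction, and the log2 change of -0.55 (SE 0.19) did not pass the adjusted test (adjusted p = 0.46). In Hs578 NR4A2 was low, with 2.72, 3.05 and 2.07 CPM with doxycycline and 6.16, 4.21 and 2.88 CPM without it, while parental Hs578 cells held 4.32 CPM with doxycycline and 2.52 CPM without it. NR4A1, known as NUR77, held 16.04, 22.6 and 15.5 CPM in induced TT642 hairpin lines and 21.8, 25.3 and 22.9 CPM in uninduced ones (-0.37, SE 0.15, adjusted p = 0.539). In Hs578 its 8 libraries all lay between 6.66 and 9.70 CPM.

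Of the KLF factors, KLF4 was the one whose induced and uninduced hairpin lines did not overlap in either cell line. KLF4 held 23.1, 29.0 and 15.9 CPM in Hs578 hairpin lines 1, 2 and 3 with doxycycline, against 56.1, 64.7 and 48.0 CPM without it. The groups were apart, as for 21.9% of the genes tested in this direction, and KLF4 was chosen by these values. The fitted log2 difference was -1.32 (SE 0.19), a 2.50-fold lower level. Parental Hs578 cells held 33.4 CPM with doxycycline and 55.5 CPM without it (-0.73). In TT642 the hairpin lines held 15.8, 12.8 and 13.4 CPM of KLF4 with doxycycline and 24.04, 24.6 and 18.3 CPM without it. The groups again did not overlap, as for 6.31% of the genes tested in this direction. The log2 change of -0.68 (SE 0.20) had an adjusted p of 0.327 by edgeR, and of 0.0375 with the replicate block, over a range of 0.0375 to 0.935. Parental TT642 cells held 26.5 CPM with doxycycline and 32.7 CPM without it (-0.30).

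KLF2, KLF6 and KLF10 showed no common direction. KLF2 held 8.16, 8.41 and 9.94 CPM in Hs578 hairpin lines with doxycycline and 10.2, 10.8 and 5.99 CPM without it, the same split by hairpin as EGR1 and EGR2. KLF6 was lower with doxycycline in Hs578 hairpin 1 (222 CPM with it, 504 CPM without it) and hairpin 2 (282 and 368 CPM) but not hairpin 3 (307 and 262 CPM). KLF10 kept within 84.1 to 112 CPM over all 8 Hs578 libraries. In TT642, the fitted changes of KLF2 (0.15, SE 0.16), KLF6 (0.00, SE 0.19) and KLF10 (0.12, SE 0.11) had adjusted p-values of 0.899, 1 and 0.865, and the direction of KLF2 turned with FPKM values and that of KLF6 under 11 of 23 settings.

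Counted by pair, 10, 9 and 4 of the 10 factors were lower with doxycycline in Hs578 hairpins 1, 2 and 3, and 6 in parental Hs578 cells. In TT642 the counts were 6, 4 and 4 for hairpins 1, 2 and 3 and 7 for parental cells. Over all genes tested, the median log2 ratio was 0 in each Hs578 pair and 0 to 0.018 in the TT642 pairs. The 10 factors were chosen by their Hs578 hairpin values, so the Hs578 hairpin counts are description only. NR4A2, NR4A3, EGR3 and KLF4 were lower in all 3 Hs578 hairpin pairs, as were 29.3% of the genes tested. Without hairpin 3 the count was 9, but then only hairpins 1 and 2 have to be lower. The share of 29.3% does not apply to that count. None was higher in all 3, as 29.2% of genes were. NR4A1, EGR1, EGR2, KLF2 and KLF6 were lower in hairpins 1 and 2 and higher in hairpin 3, a pattern of 5.65% of genes. NR4A1 was barely so in hairpin 3, with a log2 ratio of 0.004. NR4A3, EGR3 and KLF4 were also lower in the parental Hs578 pair, so in all 4 pairs, as were 22.7% of genes. NR4A1, NR4A2, NR4A3 and KLF4 were lower in all 3 TT642 hairpin pairs (15.9% of genes) and in the parental TT642 pair as well (9.61%). NR4A3 and KLF4 were lower in 8 of 8 pairs, hairpin or parental, which held for 2.99% of the genes tested. The shares of 22.7% and 2.99% are no fair background here, because the factors were chosen by the 3 Hs578 hairpin pairs within them. The smallest change of NR4A3 or KLF4 was that of NR4A3 in TT642 hairpin 1 (log2 ratio -0.04). It came from 52 reads with doxycycline and 57 without it. In bulk RNA, fewer cells that express a gene and less RNA per cell cannot be told apart.

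**Figure D3:**
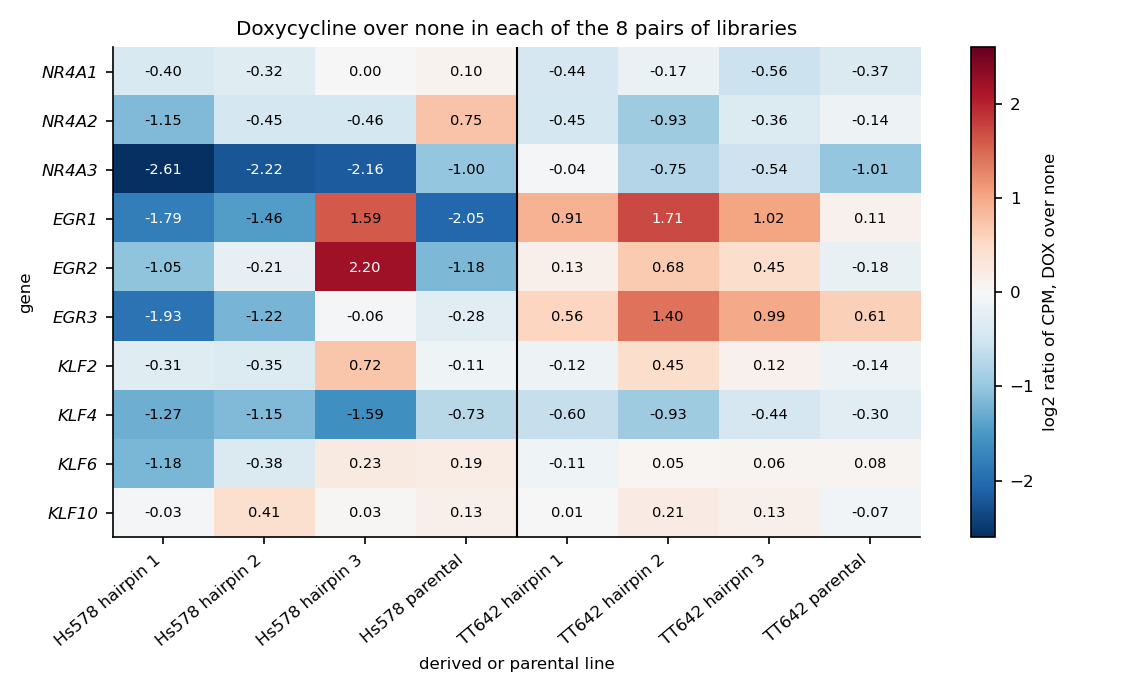
Log2 ratio of CPM with doxycycline over none in each of the 8 pairs of libraries, with blue for lower and red for higher with doxycycline. NR4A3 and KLF4 are blue in all 8 columns, and EGR1, EGR2 and KLF2 change colour between Hs578 hairpins 1 and 2 and hairpin 3.

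For doxycycline without a hairpin, averaged over both parental lines, 0 of the 10 factors were called by edgeR, where 0.0143% of the genes tested were. At an unadjusted p under 0.05 there were 2, NR4A3 (log2 change -1.03, SE 0.32, adjusted p = 0.171) and KLF4 (-0.52, SE 0.23, adjusted p = 0.307), both lower in both lines. This is near the 15.2% of all genes tested at that level. DESeq2, limma and the replicate block called 0. Each parental condition is 1 library, and the fit takes its spread from the hairpin groups. Whether the induced hairpin lines differ from parental cells in their response was not tested.

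Without doxycycline, hairpin lines were set against parental cells to see whether carrying the construct changed the factors. In Hs578, 0 of 10 were called by edgeR, DESeq2 and limma, where 0% of the genes tested were, and 1 had an unadjusted p under 0.05, as 1.91% of all genes did. That gene was KLF2, at 10.2, 10.8 and 5.99 CPM in the hairpin lines and 5.11 CPM in parental cells (0.81, SE 0.28, adjusted p = 1). In TT642, 0 of 10 were called by the same tools, where 0.919% of the genes tested were. NR4A1 alone had an unadjusted p under 0.05, with 21.8, 25.3 and 22.9 CPM in the hairpin lines and 32.4 CPM in parental cells (-0.47, SE 0.20, adjusted p = 0.369), and 12.0% of all genes were at that level.

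Values that moved with the doxycycline pairs are given here, and their part in the results was not tested. Mitochondrial transcripts took 3.18%, 4.27% and 5.44% of the counts in induced Hs578 hairpin lines 1, 2 and 3, against 2.79%, 2.29% and 2.16% in the uninduced ones, and 4.16% in parental Hs578 cells with doxycycline against 2.73% without it. In TT642 hairpin lines they took 2.59%, 3.04% and 3.98% with doxycycline and 2.85%, 2.77% and 2.6% without it. The 3 smooth muscle markers summed to 42.1 to 98.1 CPM in the 4 Hs578 libraries with doxycycline and 15.5 to 18.0 CPM in the 4 without it. Nearly all of this was ACTA2, while CNN1 was at most 0.74 CPM and MYH11, the defining marker, at most 0.25 CPM in any Hs578 library. In TT642 the same markers summed to 47.5 to 53.1 CPM with doxycycline and 29.4 to 57.7 CPM without it. The 6 mesenchymal markers summed to 25690 to 35570 CPM in the 4 Hs578 libraries with doxycycline and 18230 to 20370 CPM in the 4 without it. The matrix genes COL1A1 (log2 change 2.08, SE 0.63) and SPARC (1.08, SE 0.13) were called as higher by edgeR in Hs578 hairpin lines, as 15.2% of all genes were. The parental Hs578 pair, which has no hairpin, had log2 ratios of 1.69 for COL1A1 and 1.34 for SPARC. The other 4 mesenchymal markers were not called in the hairpin lines. In TT642 these 6 summed to 11380 to 12120 CPM with doxycycline and 10580 to 11450 CPM without it. The 4 endothelial markers in the table summed to at most 1.49 CPM and the 4 blood cell markers to at most 2.06 CPM in any library.

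Across the libraries of a line, the EGR genes varied together. Over the 8 Hs578 libraries, which include the induced and uninduced pairs, Pearson's r of log2 CPM was 0.90 for EGR1 and EGR2, 0.81 for EGR1 and EGR3, and 0.83 for EGR1 and KLF2. Over the 8 TT642 libraries it was 0.83 for EGR1 and EGR2 and 0.79 for EGR1 and EGR3. NR4A3 and KLF4 had r of 0.92 in Hs578 and 0.70 in TT642. Other pairs were high in 1 line, such as NR4A1 and KLF4 (0.78 in TT642 and 0.30 in Hs578) and NR4A2 and KLF6 (0.79 in Hs578 and -0.38 in TT642). KLF4 ran against the EGR genes in TT642 (r of -0.83 with EGR1 and -0.85 with EGR3) while r was 0.28 and 0.57 for these pairs in Hs578. These values describe libraries that share derived lines and doxycycline, and no test was made.

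**Figure D4:**
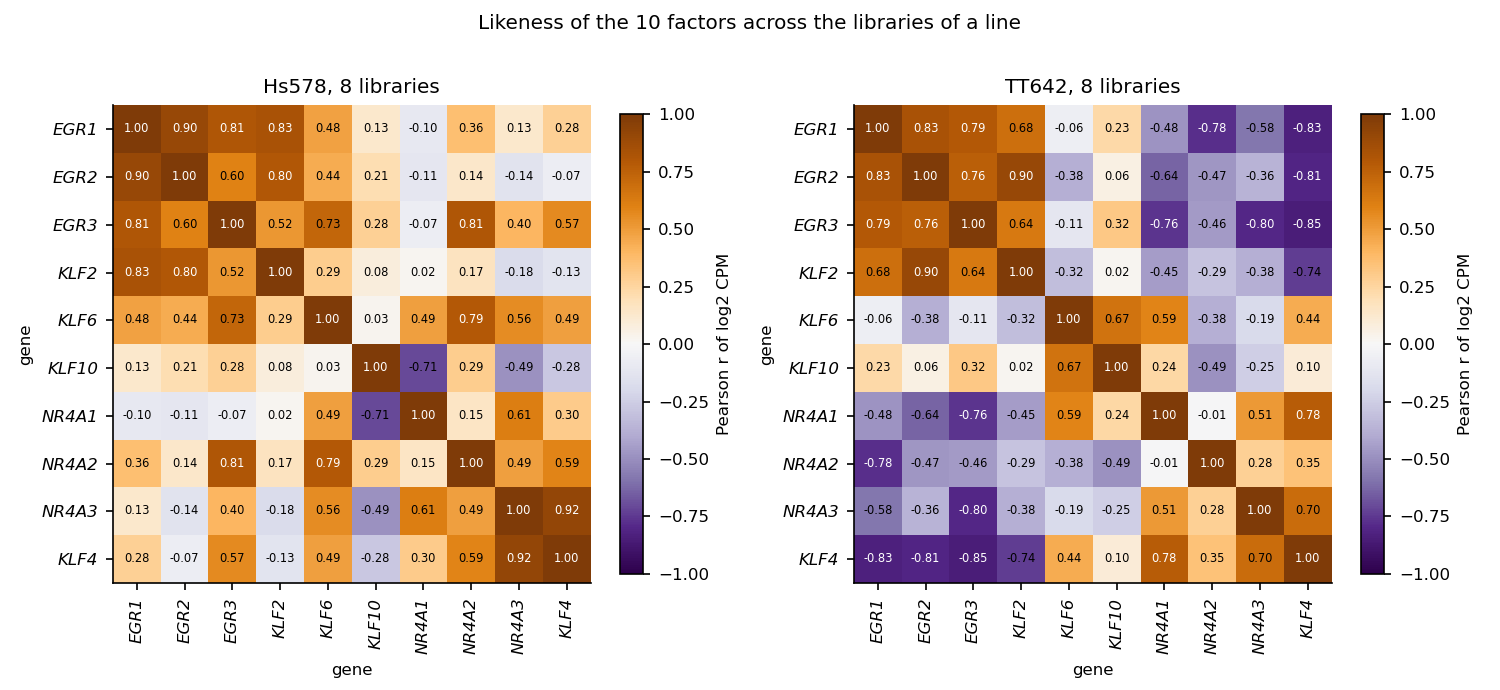
Pearson's r between the log2 CPM of the 10 factors over the 8 libraries of Hs578 and the 8 of TT642, with brown for positive and purple for negative values. The EGR genes and KLF2 form a positive block in both lines, and KLF4 against EGR1 reads 0.28 in Hs578 and -0.83 in TT642.

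The genes most like the mean of each family over the 16 libraries, after centring within each line, were sought among 10342 other genes. For the mean of the 3 EGR genes they were FOS (r = 0.781), an AP-1 subunit, IER2 (0.771) and RHOB (0.755), a small GTPase. Within single lines, r for IER2 was 0.903 in Hs578 and -0.155 in TT642. For the NR4A mean they were RNF144A (0.923), the fatty acid desaturase gene SCD (0.887) and WDR19 (0.882). For the KLF mean they were DUSP1 (0.927), a phosphatase of MAP kinases, ATF3 (0.875) and MYC (0.843). The NR4A and KLF members did not all vary together within a line, so these means need not describe each member.

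FOS shows how far this likeness goes. It held 39.4, 47.7 and 18.0 CPM in Hs578 hairpin lines 1, 2 and 3 with doxycycline, against 426, 395 and 51.3 CPM without it, and 10.3 CPM in parental Hs578 cells with doxycycline against 111 CPM without it. FOS was thus lower in all 4 Hs578 pairs, unlike EGR1, though both had their lowest uninduced level in hairpin 3. DUSP1 showed the split of EGR1, with 51.1, 59.8 and 73.3 CPM in the hairpin lines with doxycycline and 384, 224 and 55.6 CPM without it. In TT642, FOS held 36.7, 68.1 and 48.4 CPM in the hairpin lines with doxycycline and 41.9, 30.8 and 42.8 CPM without it.

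Among 28 other immediate early genes tested, edgeR called 7 as lower and 2 as higher with doxycycline in Hs578 hairpin lines, with a median log2 change of -0.19 (all genes 0). The medians of the single pairs were -0.69, -0.28 and 0.27 for hairpins 1, 2 and 3 and 0.03 for parental cells, against -1.17, -0.42 and 0.01 for the 10 factors and -0.19 for them in parental cells. In this comparison 14.1% of all genes were called as lower and 15.2% as higher. This list and those below were chosen with earlier results of these data known, so their calls in Hs578 hairpin lines are description only. The phosphatase gene DUSP2 (1.24, SE 0.37) and IER3 (0.52, SE 0.13) were the 2 that were higher. Of the same 28 in TT642 hairpin lines, 0 were called by edgeR, DESeq2 and limma. An unadjusted p under 0.05 was found for 1, beside 7.82% of all genes.

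Feedback and output genes of ERK signalling were lower with doxycycline in Hs578 hairpin lines for 8 of 16 and higher for none, with a median of -0.44 (all genes 0). Of all genes, 14.1% were called as lower there and 15.2% as higher. The largest differences were those of DUSP6, the ERK phosphatase (-1.17, SE 0.29), SPRED3, an inhibitor of RAF activation (-1.02, SE 0.33), and DUSP5, a nuclear ERK phosphatase (-0.77, SE 0.23). The median of the parental Hs578 pair was 0.01. Of these 16 in TT642 hairpin lines, 0 were called by edgeR, DESeq2 and limma. An unadjusted p under 0.05 was found for 2, beside 7.82% of all genes. Against the 1 uninduced library of parental TT642 cells, uninduced TT642 hairpin lines had 3 lower genes of this list by edgeR, beside 0.762% of all genes. They were SPRY1 (-2.81, SE 0.49, adjusted p = 0.0121), ETV1 (-2.39, SE 0.33) and PHLDA1 (-0.97, SE 0.20). The tools did not agree there, as DESeq2 called 4 of the 16 and limma 1 or 0 with the pseudocounts of 1 or 0.1. By edgeR all 16 differed between the lines without doxycycline, 11 higher and 5 lower in Hs578, with DUSP6 at 3.77 (SE 0.29) on the log2 scale. Of all genes tested, 83.5% differed in this way, 42.4% higher and 41.1% lower.

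Of 27 upstream factors and kinases, 7 were lower in Hs578 hairpin lines with doxycycline, led by the kinase RPS6KA3 (-0.81, SE 0.16), MEF2A (-0.59, SE 0.16) and MEF2C (-0.55, SE 0.18), and 1 was higher, the SRF cofactor MKL1 (0.41, SE 0.08), with a median of -0.08. Among all genes 14.1% were called as lower and 15.2% as higher. SRF itself stood at 56.5 to 83.8 CPM in Hs578 libraries and 89.1 to 111 CPM in TT642 libraries (uninduced log2 difference -0.51, SE 0.09, adjusted p = 6.47e-05). None of the 27 (0) in TT642 hairpin lines was called by edgeR, DESeq2 and limma. An unadjusted p under 0.05 was found for 3, beside 7.82% of all genes.

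The co-repressors that hold EGR activity in check differed between the lines in 1 of 2 genes. NAB2, itself an EGR target, stood at 24.9 to 40.4 CPM in Hs578 and 142 to 168 CPM in TT642 (uninduced log2 difference -2.56, SE 0.09, adjusted p = 1.04e-12). NAB1 stood at 21.2 to 37.5 CPM in Hs578 and 20.2 to 33.1 CPM in TT642 (0.02, SE 0.13, adjusted p = 0.897). With the retinoid receptors RXRA and RXRB, partners of NR4A1 and NR4A2, edgeR called 0 of 4 with doxycycline in either line. Of all genes it called 29.3% in Hs578 hairpin lines and 0.0285% in those of TT642. In Hs578, 2 of the 4 had an unadjusted p under 0.05, beside 40.8% of all genes, and DESeq2 called 0 and limma 1. In TT642 all of these counts were 0, with 7.82% of all genes at an unadjusted p under 0.05.

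Of 20 other KLF, SP and EGR genes tested from 23 listed, 6 were lower and 2 higher with doxycycline in Hs578 hairpin lines, with a median of -0.35. The shares of all genes were 14.1% lower and 15.2% higher. KLF13 (-0.75, SE 0.12), the thyroid hormone-regulated KLF9 (-0.64, SE 0.14) and KLF3 (-0.58, SE 0.13) had the largest lower values, and KLF17 (1.07, SE 0.31) and KLF16 (0.39, SE 0.08) were higher. In TT642 hairpin lines 0 of 20 were called by edgeR, DESeq2 and limma. An unadjusted p under 0.05 was found for 0, beside 7.82% of all genes. EGR4, the remaining EGR gene, was at 0 in all 8 Hs578 libraries and at 0.11 to 0.46 CPM in TT642.

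Lists of heat shock, dissociation stress and TGF-beta genes had mixed values with doxycycline. Of 11 heat shock and dissociation stress genes, HSPB1 (0.75, SE 0.18), HSPE1 (0.63, SE 0.15) and HSP90AA1 (0.32, SE 0.10) were higher and HSPH1 (-0.46, SE 0.12) lower with doxycycline in Hs578 hairpin lines, with a median of -0.01. In these lines 15.2% of all genes were called as higher and 14.1% as lower. Of 10 early genes of TGF-beta, which KLF10 belongs with, 0 were called by edgeR in Hs578 hairpin lines (median 0.29) or in TT642 hairpin lines (median -0.32). In Hs578, DESeq2 called 1 of the 10, and limma 1 or 2 with the pseudocounts of 1 or 0.1. There 1 had an unadjusted p under 0.05, beside 40.8% of all genes. In TT642, DESeq2 and limma called 0, and 1 had an unadjusted p under 0.05, beside 7.82% of all genes.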

How the data were processed

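Libraries of polyadenylated RNA were made from total RNA with a stranded kit, per the labels' protocols. The authors deposited raw read counts per gene symbol, and FPKM values, which scale fragments by transcript length and library depth. Per the submitters' processing notes, reads were placed on hg19. No source used here names the aligner, the counter, the annotation or the use of strand, so reads shared with antisense or overlapping genes cannot be told apart. Counts covered 20114 genes and FPKM values 20111 of them.

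The test was edgeR's quasi-likelihood test (version 4.0.16, R 4.3.3, TMM scaling, default filter on the 8 groups, robust moderation), which kept 14035 genes. All 16 libraries entered the fit, with a mean for each group and 8 residual degrees of freedom. Tests were two-sided, with Benjamini-Hochberg adjustment over all genes tested and a threshold of 0.05. Log2 ratios of pairs used a prior count of 2. Comparisons were doxycycline against none in hairpin lines of each cell line and in parental cells, Hs578 against TT642, and hairpin lines against parental cells. Alternatives were relative log expression scaling, DESeq2 1.42.0, no filter, no robust moderation, limma 3.58.1 on log2 FPKM with pseudocounts of 1 and 0.1, single cell lines, a replicate block, and leaving out hairpins or libraries. The fit was tested on simulated data. Residual precision rests on 3 libraries per hairpin group.

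The 10 genes and the other gene lists were chosen with earlier results of these data known. The Hs578 hairpin comparison is therefore described without p-values for the 10 genes, and calls of the other lists in it are description only. Of each other list, up to 3 called genes per direction and comparison with the largest changes were named, and NAB1, NAB2, SRF, DUSP1, DUSP6, FOS and EGR4 in any case, though not every gene this rule takes is reported. Likeness was sought among genes whose log2 CPM averaged 2 or more.

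The hairpin number was taken to mark 1 derived line, which pairs its induced and uninduced libraries. Deviations from group means correlated within these pairs at 0.44, 0.42 and 0.42 in TT642, and in Hs578 at 0.13, -0.03 and 0.00. Libraries of unlike number in Hs578 correlated at -0.11 to 0.11. The pairing in Hs578, and its ratios by pair, thus rest on the labels alone.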

Additional observations from a re-analysis of the deposited data

Results flagged for a closer look

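The hairpin pairs of EGR3 lay in opposite directions in the 2 lines. Its mean log2 ratio of doxycycline over none was -1.07 over the 3 Hs578 hairpin pairs, all lower, and 0.98 over the 3 TT642 hairpin pairs, all higher, a difference of -2.05. The Hs578 hairpin 3 pair was at -0.06, from 42 reads with doxycycline and 45 without it. In Hs578 the induced and uninduced hairpin lines overlapped for EGR3. The gene was chosen by its Hs578 hairpin values, so that side is description only. How many of all genes show such opposite pairs was not counted, and the difference between the lines was not tested.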

How the results depend on the processing

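The count of factors lower in every Hs578 hairpin pair was 4 and ran from 4 to 9 when a hairpin or library was left out, with 9 where hairpin 3 was left out. Fewer pairs have to be lower in such a setting, which by itself keeps or raises the count. With the replicate block, 1 factor (KLF4) was called in TT642 hairpin lines in place of 0, and the block changed no call of the 10 factors in parental cells. The block was not run for the comparisons between cell lines or between hairpin lines and parental cells. Changes near 0 turned their sign under some settings, and the cause was not tested. In TT642 hairpin lines, KLF2 came to -0.023 and -0.025 by limma with the pseudocounts of 1 and 0.1. KLF6 there came to -0.008 with relative log expression scaling and with DESeq2, -0.006 by limma, -0.001 with the replicate block, -0.007 with the TT642 libraries alone, and -0.033 to 0.055 when a hairpin or library was left out (-0.022, -0.032, -0.019 and -0.009 among them). KLF10 in parental cells came to -0.016 by limma. For uninduced hairpin lines against parental cells, leaving out a hairpin or library moved EGR2 over -0.16 to 0.849 in Hs578 and -0.08 to 0.102 in TT642, and KLF10 in Hs578 over -0.08 to 0.131. KLF4 in Hs578 came to -0.008 and -0.009 by limma and ran from -0.092 to 0.123 when a hairpin or library was left out (-0.087 without hairpin 2). Over the 5 tested comparisons, alternatives of single factors kept their direction and their side of the threshold in 1060 cases, lost the call in 8, all between the cell lines, and gained it in 5, of which 4 were EGR1 between the cell lines and 1 was KLF4 with the block. Read numbers of 9 to 60 for EGR2 and 17 to 139 for NR4A3 in Hs578 limit the precision of their ratios.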
